A study of Mus musculus with 32 samples.

Results

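The extracellular matrix genes described here were 50 collagens, laminins and matrix glycoproteins, out of 8251 genes with a probe set of their own on the array. They were taken by symbol, as 31 collagen chains, 9 laminin chains, 2 fibulins, 2 thrombospondins, the 3 small leucine-rich proteoglycans lumican (Lum), decorin (Dcn) and biglycan (Bgn), and 3 further glycoproteins, fibronectin (Fn1), Sparc and periostin (Postn). A probe set is the group of short probes that reads 1 transcript, and for the 16 genes with several, the brightest on average across the 32 arrays was used. Every animal was a wildtype mouse of the inbred strain FVB. On lab chow, whole mammary gland was taken on pregnancy days 12 and 17 (PD12 and PD17) and lactation days 1, 2 and 9 (LD1, LD2 and LD9), with 4 arrays per stage. On diets in which soy oil gave 8%, 16% or 40% fat, mammary gland was taken on lactation day 10, with 3 arrays per diet, and 3 further arrays held liver on 8% fat. The 8% and 40% diets followed chow and were fed for 5 days from lactation day 5, by the submitters' design text, which does not describe how the 16% diet was fed. The titles set these groups, since the descriptions of the mammary arrays titled 8% and 16% name 40% fat. Nothing in the labels ties a liver array to a mammary array of the same dam.

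The extracellular matrix is the protein scaffold between and beneath cells. Fibrillar collagens of types I, III and V form the tensile fibres of connective tissue and are made mostly by fibroblasts, while type IV collagen and laminins build the basement membrane that carries the mammary epithelium and also surrounds adipocytes and capillaries. Type VI collagen forms beaded filaments near cell surfaces, and small leucine-rich proteoglycans bind collagen fibrils and regulate their width. During pregnancy the mammary fat pad fills with alveoli, and the basement membrane laminins are known to support milk protein expression by the alveolar cells that rest on them.

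Promoters were read for 34 of the 50 genes from RefSeq (assembly GRCm38.p6), as windows of 300 bases with 250 before and 50 after the annotated start. Capitals mark 3 short motifs on either strand: CCAAT or its complement ATTGG, the GC box GGGCGG or its complement CCGCCC, and TATAAA or its complement TTTATA. The sequences shown are those of a pair of fibrillar collagen genes that both fell in lactation, and of the segment that holds the starts of both genes of the basement membrane pair Col4a1 and Col4a2, 21 bases apart on chromosome 8.
Col1a2, chr6:4505368-4505667, plus strand: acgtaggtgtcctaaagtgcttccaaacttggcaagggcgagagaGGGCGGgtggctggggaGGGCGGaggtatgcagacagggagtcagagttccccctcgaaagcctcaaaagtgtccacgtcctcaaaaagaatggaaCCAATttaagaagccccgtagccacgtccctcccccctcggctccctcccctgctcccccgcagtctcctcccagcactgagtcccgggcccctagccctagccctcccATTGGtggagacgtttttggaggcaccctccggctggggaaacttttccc
Col3a1, chr1:45311288-45311587, plus strand: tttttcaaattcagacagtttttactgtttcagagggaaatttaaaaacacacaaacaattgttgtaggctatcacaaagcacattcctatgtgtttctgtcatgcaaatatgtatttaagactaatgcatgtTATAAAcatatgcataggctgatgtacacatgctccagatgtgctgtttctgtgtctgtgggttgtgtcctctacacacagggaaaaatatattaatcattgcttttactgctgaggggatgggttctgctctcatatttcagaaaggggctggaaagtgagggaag
Col4a2, chr8:11312555-11312854, plus strand: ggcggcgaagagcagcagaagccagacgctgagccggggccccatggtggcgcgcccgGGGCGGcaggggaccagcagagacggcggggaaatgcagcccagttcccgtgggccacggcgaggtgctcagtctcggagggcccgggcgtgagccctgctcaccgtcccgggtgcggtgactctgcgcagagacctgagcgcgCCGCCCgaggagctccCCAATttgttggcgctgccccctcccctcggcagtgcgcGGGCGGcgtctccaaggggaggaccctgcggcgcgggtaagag
Counted from the annotated start, the Col1a2 window held CCAAT at -109, its complement over the start itself, and GC boxes at -205 and -188. The Col3a1 window held TATAAA at -117 and neither of the other motifs. In the Col4a2 window, CCAAT began at -32 and GC boxes lay at -192, -48 and 7. Of the 40 windows of the 34 genes, 13 held CCAAT (32.5%), 20 a GC box and 7 TATAAA (17.5%), against 37.4%, 35.7% and 13.6% of the 32851 windows of the same length in the table. These matches describe the letters only.

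Levels are given as log2 of the deposited intensity, and testing was limited to probe sets with at least 1 group mean in a fit at or above 4.22, the log2 of the median of all values. Of the 50 genes, 39 passed this line in the mammary stages, 34 in the diets and 33 in the comparison of tissues. No result compares the levels of different genes, because each probe set has its own response. Brightness served to choose the probe set of a gene with several, to set the filter and to choose which genes are given by array. The distribution of all probe sets moved with stage: the 25th percentile of intensity was 9.37 to 10.5 over LD9 arrays and 7.13 to 7.76 over PD12 arrays, while the 75th percentile was 60.7 to 64.1 at LD9 and 78.9 to 84.4 at PD12. Probe sets below the line in both groups had a median log2 change of 0.46 at LD9 relative to PD12, so small rises of genes below the line lie close to this drift. LD9 replicate 1 stood apart: it was the lowest LD9 array for 18 of the 26 genes that fell between PD12 and LD9, with a median log2 deviation of -0.53 from its group's median, against 0.21, -0.05 and 0.13 in the other LD9 arrays. Counts at LD9 and the leading changes are therefore also given without it. The labels do not say whether arrays of a group came from separate litters or batches, so p-values measure the spread between these arrays.

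The widest span of the time course, LD9 against PD12, asked how the matrix transcripts of an established lactating gland differ from those of mid pregnancy. Of the 39 genes tested, 26 fell and 6 rose (limma, adjusted p under 0.05), where 42.4% of all tested probe sets fell and 35.2% rose. Among the rises, Col12a1 and Col26a1 passed the filter only through their LD9 means, 4.26 and 4.28. Among the falls, Thbs2 passed only through its PD12 mean, 4.54. For these genes the filter and the comparison are not independent. The falls were led by Col6a3, Lama4, Lamb3 and Lum, 16.3-fold to 18.6-fold lower, and 24 genes fell at least 2-fold. The median log2 change over all 50 genes was -0.82, beside 0.35 over all probe sets. Without LD9 replicate 1, 26 genes fell and 4 rose of 37 tested. When arrays were set equal on ribosomal protein genes instead, the split was 25 lower and 11 higher, and the median over all probe sets shifted by 0.47. Fewer cells of a type and less RNA per cell cannot be told apart in whole tissue.

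**Figure D1:**
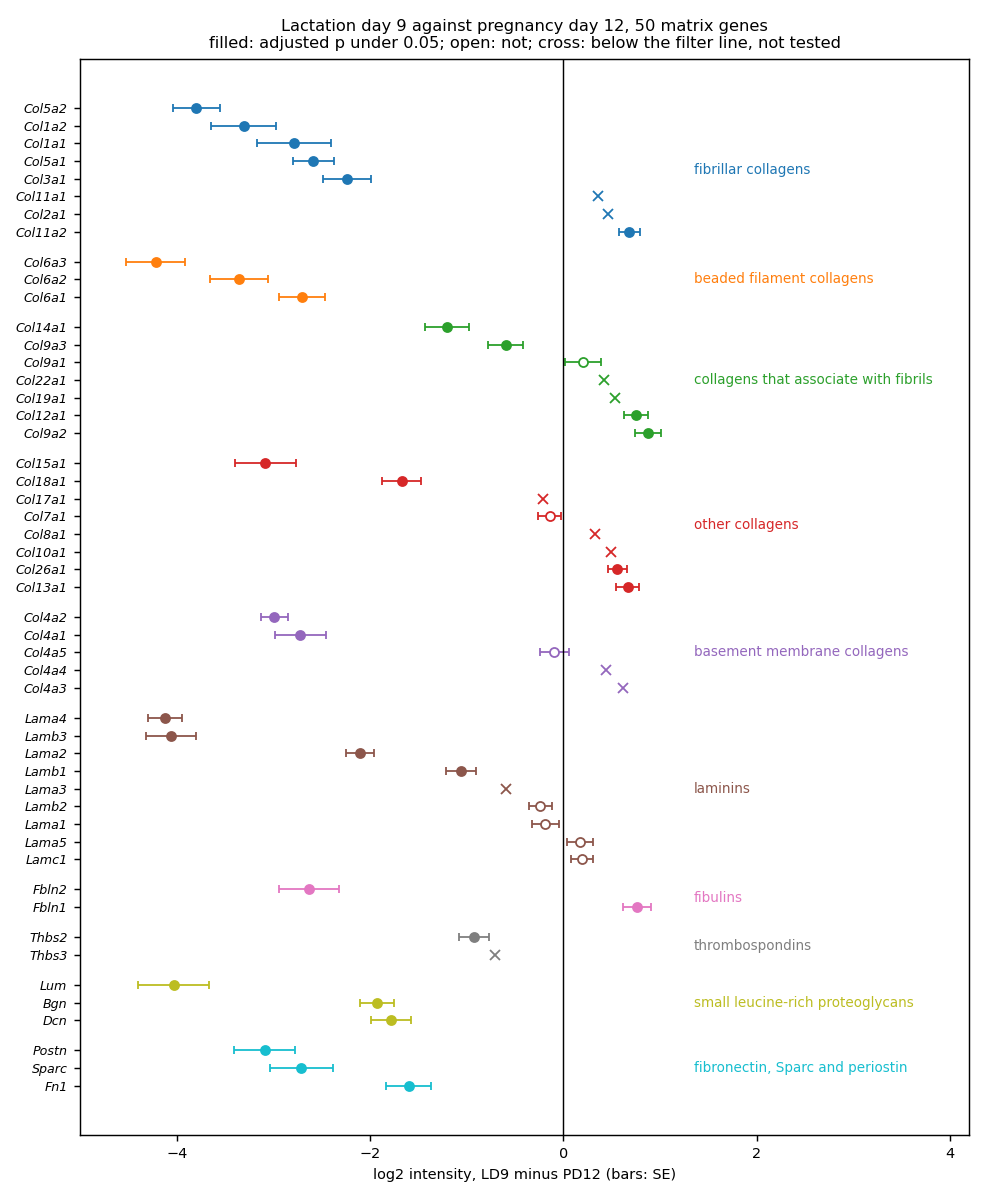
Log2 change between LD9 and PD12 (horizontal axis, LD9 minus PD12) for the 50 matrix genes, grouped by role. Points are changes with bars of 1 standard error, filled where the adjusted p was under 0.05, open where it was not, and crosses mark the 11 genes below the filter line. The fibrillar, beaded filament, proteoglycan and glycoprotein groups lie mainly to the left of 0, with Col6a3 farthest at -4.22.

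Most tested fibrillar collagens fell. Of 8 on the array, 6 were tested, 5 fell between PD12 and LD9 and Col11a2 rose. Col3a1, the chain of type III collagen, had log2 levels of 11.61, 11.67, 11.75 and 11.80 at PD12, 11.09, 11.25, 11.29 and 11.24 at PD17, 10.15, 10.78, 10.67 and 10.67 at LD1, 10.42, 10.54, 10.34 and 10.18 at LD2, and 8.36, 10.19, 9.62 and 9.71 at LD9. The arrays of PD12 lay above those of every lactation stage, and LD9 replicate 1 was the lowest of the 20. Col3a1 averaged 9.47 ± 0.78 at LD9 and 11.71 ± 0.08 at PD12 (log2, SD, n = 4 each), a log2 change of -2.24 (SE 0.25, adjusted p = 1.54e-07), and of -1.87 without LD9 replicate 1. Col1a2, a chain of type I collagen, had log2 levels of 11.66, 11.12, 11.47 and 11.54 at PD12, 10.96, 10.96, 10.82 and 11.03 at PD17, 9.77, 10.29, 10.16 and 9.95 at LD1, 9.62, 9.55, 9.07 and 8.86 at LD2, and 6.59, 8.99, 8.33 and 8.64 at LD9. It was lower in all lactation arrays than in any pregnancy array and changed by -3.31 at LD9 relative to PD12 on the log2 scale (SE 0.34, adjusted p = 5.00e-08), or by -2.79 without LD9 replicate 1. A dimmer probe set for Col1a2 went the other way, with a log2 change of 0.65 (adjusted p = 0.00186). The type V chains, which help to set fibril diameter, changed by -3.80 for Col5a2 and -2.59 for Col5a1 on the log2 scale (-3.47 and -2.42 without LD9 replicate 1). The other type I chain, Col1a1, changed by -2.79, and by -2.17 without that array. For Col1a1, whose arrays were examined after its values were seen, the LD9 log2 levels were 7.53, 10.23, 9.73 and 10.03, so replicate 1 lay far below the rest. Col2a1 and Col11a1, best known from cartilage, stayed under the filter line.

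The 3 beaded filament collagens, the chains of type VI, showed some of the steepest falls. Col6a3 had log2 levels of 9.79, 9.63, 9.48 and 9.67 at PD12, 7.67, 7.61, 7.89 and 7.95 at PD17, 6.49, 7.17, 6.83 and 6.95 at LD1, 6.54, 6.34, 5.97 and 5.77 at LD2, and 4.13, 6.03, 5.29 and 6.25 at LD9. No array of a stage from PD17 on reached the lowest PD12 array, and the log2 change at LD9 relative to PD12 was -4.22 (SE 0.31, 18.6-fold, adjusted p = 6.02e-10), or -3.79 without LD9 replicate 1. For Col6a2 the log2 levels were 9.32, 9.04, 8.84 and 9.09 at PD12, 7.51, 7.58, 6.86 and 7.12 at PD17, 6.48, 7.15, 6.57 and 6.43 at LD1, 7.32, 6.88, 6.72 and 6.38 at LD2, and 4.50, 6.29, 5.93 and 6.15 at LD9. Col6a1 had 9.70, 8.93, 9.04 and 9.35 at PD12, 8.23, 8.15, 7.94 and 7.80 at PD17, 7.26, 7.36, 7.86 and 7.27 at LD1, 7.76, 7.62, 7.48 and 7.12 at LD2, and 5.67, 6.80, 6.64 and 7.08 at LD9 (log2). Both stood highest at PD12 and lowest at LD9, with a plateau between LD1 and LD2 in which the arrays of the stages overlapped. Their log2 changes at LD9 relative to PD12 were -3.36 for Col6a2 and -2.71 for Col6a1, and -2.95 and -2.41 without LD9 replicate 1. A further Col6a1 probe set changed by -2.96.

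Among the basement membrane collagens the ubiquitous type IV chains fell and the others were dim or not called. Col4a1 had log2 levels of 11.88, 12.08, 12.30 and 12.12 at PD12, 11.31, 11.44, 11.67 and 11.78 at PD17, 10.56, 11.50, 10.93 and 11.22 at LD1, 10.71, 11.00, 10.61 and 10.34 at LD2, and 8.39, 9.93, 9.35 and 9.84 at LD9. Its stages overlapped from LD1 to LD2, and LD9 lay below all others. Between PD12 and LD9 Col4a1 changed by -2.72 and its neighbour and partner Col4a2 by -2.99 on the log2 scale (SE 0.26 and 0.14), or by -2.39 and -2.91 without LD9 replicate 1. Col4a5 had a log2 change of -0.09 (adjusted p = 0.57), and Col4a3 and Col4a4 stayed under the line. Both multiplexins, collagens of the basement membrane zone that can release inhibitors of vessel growth, fell between PD12 and LD9. Col15a1 had log2 levels of 8.47, 8.83, 8.53 and 8.30 at PD12, 6.73, 7.03, 7.44 and 7.54 at PD17, 5.88, 6.99, 6.34 and 6.14 at LD1, 7.29, 7.02, 7.10 and 6.44 at LD2, and 4.34, 6.12, 5.30 and 6.05 at LD9. Col18a1 had 7.88, 7.74, 8.56 and 7.84 at PD12, 7.38, 6.99, 6.54 and 6.51 at PD17, 6.72, 6.06, 6.58 and 6.07 at LD1, 6.18, 6.36, 6.05 and 6.09 at LD2, and 6.30, 6.24, 6.47 and 6.32 at LD9 (log2). On its brightest probe set Col18a1 lost most of its level by PD17 and LD1 and then levelled off, whereas Col15a1 fell at PD17 and again at LD9. A dimmer Col18a1 probe set averaged 7.08 at PD12, 5.80 at PD17, 5.25 at LD1, 5.10 at LD2 and 4.89 at LD9 (log2). Another averaged 5.83 at PD12 and 3.54 at PD17, and the remaining ones stayed under the filter line at every stage. The log2 changes at LD9 relative to PD12 were -3.08 for Col15a1 and -1.67 for Col18a1, and -2.71 and -1.66 without LD9 replicate 1.

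Laminins, trimers of an alpha, a beta and a gamma chain, split into chains that fell and chains that did not pass the test. Of 8 tested chains, Lama4, Lamb3, Lama2 and Lamb1 fell between PD12 and LD9, and Lama1, Lama5, Lamb2 and Lamc1 were not called. Lama4, the alpha chain of vessels, fat and muscle, had log2 levels of 7.81, 7.65, 7.28 and 7.46 at PD12, 6.15, 5.88, 5.58 and 5.72 at PD17, 4.93, 5.64, 5.38 and 5.16 at LD1, 4.47, 3.90, 3.74 and 3.80 at LD2, and 3.39, 3.32, 3.32 and 3.70 at LD9. It lay below the filter line in every LD9 array, and its log2 change at LD9 relative to PD12 was -4.12 (SE 0.18, adjusted p = 4.75e-13), or -4.11 without LD9 replicate 1. A dimmer Lama4 probe set, below the line and not tested, had a log2 change of 0.77. Lamb3, the beta chain of the epithelial laminin that anchors hemidesmosomes, had log2 levels of 9.06, 7.95, 7.97 and 8.51 at PD12, 9.14, 9.18, 8.48 and 8.93 at PD17, 7.23, 7.82, 8.02 and 7.95 at LD1, 7.54, 7.47, 7.33 and 6.93 at LD2, and 4.14, 4.31, 4.98 and 3.84 at LD9. The PD17 arrays of Lamb3 overlapped those of PD12, and the gene declined on LD1 and at LD9 had its highest array at 4.98. Its log2 change was -4.06 between PD12 and LD9 (SE 0.26, adjusted p = 1.20e-10), of which -3.00 came between LD2 and LD9. Without LD9 replicate 1 these changes were -4.00 and -2.95. A dimmer Lamb3 probe set changed by -0.55 between PD12 and LD9 (adjusted p = 0.0255), with arrays that overlapped, and by -0.26 between LD2 and LD9 (adjusted p = 0.418), so the size of the fall depends on the probe set. Lamb1, a widespread beta chain, had log2 levels of 7.97, 7.87, 8.48 and 8.30 at PD12, 7.29, 7.46, 7.84 and 7.70 at PD17, 7.19, 7.70, 7.30 and 7.44 at LD1, 7.04, 7.20, 7.07 and 7.21 at LD2, and 6.76, 7.21, 7.26 and 7.16 at LD9. The LD9 arrays of Lamb1 lay below those of PD12 and overlapped those of LD2. Lama2, an alpha chain of mesenchymal and muscle basement membranes, changed by -2.10 on the log2 scale, and Lamb1 by -1.06 (-2.11 and -0.94 without LD9 replicate 1). By contrast Lama5, Lamb2 and Lamc1 had log2 changes of 0.17, -0.24 and 0.19, and Lama1, Lama5 and Lamc1 were the 3 tested genes without a called change over the 5 stages. That test called 36 of the 39 genes, where 87.5% of all tested probe sets were called.

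**Figure D2:**
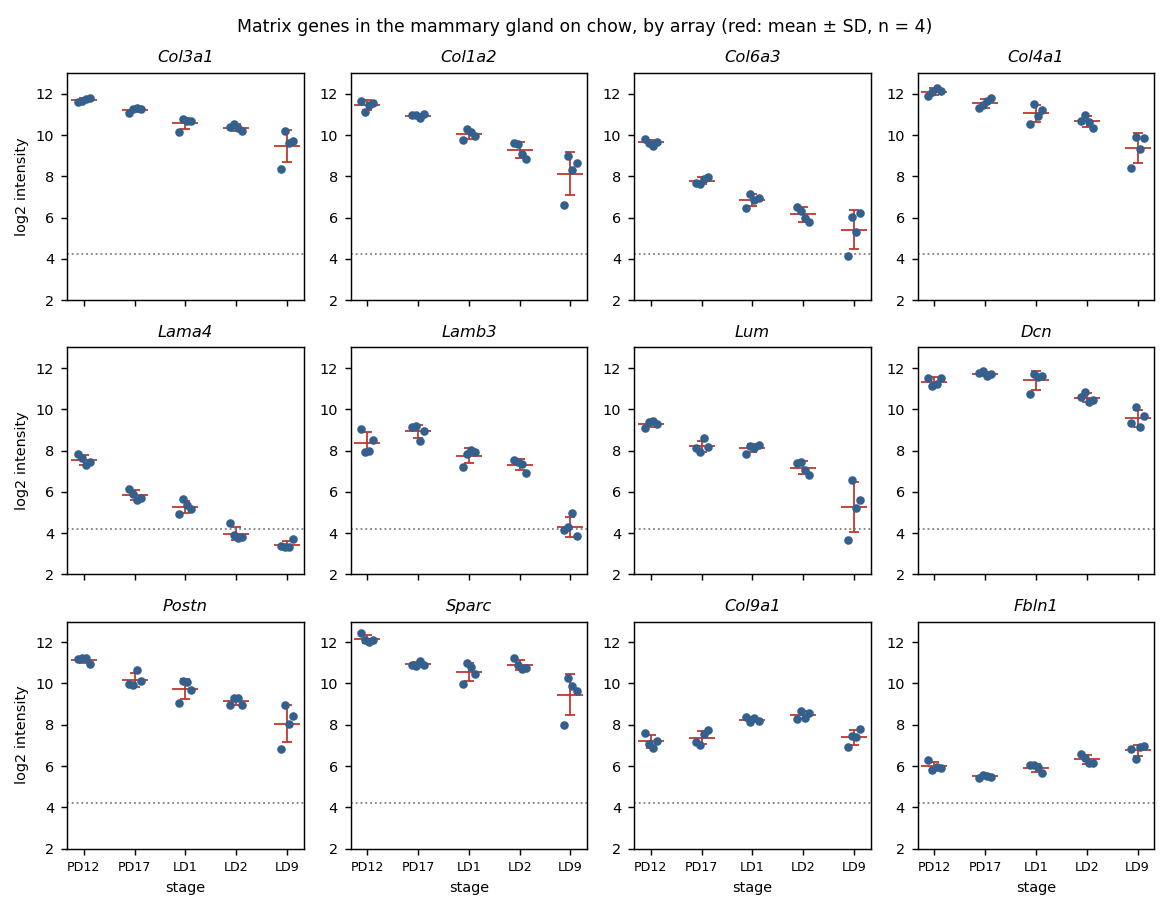
Log2 intensity (vertical axis) of 12 matrix genes in the mammary gland on chow by stage (horizontal axis), with a blue point per array, red bars for the mean and SD of 4 arrays and a dotted line at the filter of 4.22. In 10 panels the LD9 mean is the lowest, Col9a1 peaks at LD2 and Fbln1 is lowest at PD17.

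All 3 small leucine-rich proteoglycans fell between PD12 and LD9, on different schedules. Lum, which spaces collagen fibrils, had log2 levels of 9.09, 9.41, 9.41 and 9.27 at PD12, 8.12, 7.94, 8.59 and 8.20 at PD17, 7.82, 8.20, 8.14 and 8.25 at LD1, 7.41, 7.43, 7.06 and 6.82 at LD2, and 3.66, 6.55, 5.23 and 5.61 at LD9. The LD9 arrays of Lum lay below all others but spread widely, and its log2 change was -4.03 (SE 0.37, adjusted p = 1.25e-08), or -3.50 without LD9 replicate 1. Dcn, which binds type I collagen and transforming growth factor beta, had log2 levels of 11.51, 11.11, 11.21 and 11.54 at PD12, 11.75, 11.84, 11.59 and 11.70 at PD17, 10.74, 11.73, 11.59 and 11.60 at LD1, 10.58, 10.85, 10.35 and 10.46 at LD2, and 9.32, 10.09, 9.14 and 9.68 at LD9. Its PD17 arrays lay above those of PD12, LD1 replicate 1 lay below the rest of its stage, and the level fell at LD2 and again at LD9. Dcn and Lum are next to each other on chromosome 10 in the RefSeq annotation. Bgn had log2 levels of 8.46, 7.93, 8.10 and 8.26 at PD12, 7.73, 7.65, 7.20 and 7.14 at PD17, 6.57, 6.60, 7.32 and 6.78 at LD1, 6.40, 6.62, 6.59 and 6.48 at LD2, and 5.86, 6.54, 6.36 and 6.28 at LD9. Its decline was nearly complete by LD1 and LD2. At LD9 relative to PD12 the log2 changes were -1.78 for Dcn and -1.93 for Bgn (SE 0.21 and 0.18), or -1.70 and -1.79 without LD9 replicate 1. A dimmer Bgn probe set had a log2 change of 0.05 (adjusted p = 0.73) and was not called.

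The glycoproteins Sparc, Postn and Fn1 also fell. Sparc, a collagen-binding protein of remodelling tissue, had log2 levels of 12.45, 12.08, 12.01 and 12.10 at PD12, 10.87, 10.85, 11.10 and 10.88 at PD17, 9.97, 10.98, 10.80 and 10.48 at LD1, 11.23, 10.90, 10.70 and 10.74 at LD2, and 8.01, 10.26, 9.87 and 9.65 at LD9. It dropped by PD17, held between PD17 and LD2, and dropped again at LD9, where replicate 1 lay lowest. Its log2 change at LD9 relative to PD12 was -2.71 (SE 0.32, adjusted p = 4.11e-07), or -2.23 without LD9 replicate 1. Postn, a fibroblast product that promotes collagen assembly, had log2 levels of 11.17, 11.23, 11.24 and 10.94 at PD12, 9.95, 9.91, 10.64 and 10.14 at PD17, 9.04, 10.10, 10.07 and 9.70 at LD1, 8.98, 9.31, 9.31 and 8.98 at LD2, and 6.83, 8.94, 8.04 and 8.41 at LD9. Fn1, the ligand of several integrins, had 9.89, 8.86, 9.69 and 9.51 at PD12, 8.91, 8.48, 8.50 and 8.26 at PD17, 8.28, 8.20, 8.58 and 8.13 at LD1, 7.91, 8.31, 8.02 and 7.85 at LD2, and 7.64, 7.59, 8.67 and 7.64 at LD9 (log2). Postn fell over the whole span, while Fn1 fell by PD17 and then varied within overlapping ranges. Their log2 changes at LD9 relative to PD12 were -3.09 for Postn and -1.60 for Fn1, or -2.68 and -1.52 without LD9 replicate 1.

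Both fibulins and the tested thrombospondin changed. Fbln2, a ligand in basement membranes and elastic fibres, had log2 levels of 7.42, 7.32, 7.35 and 7.39 at PD12, 6.91, 6.97, 6.24 and 6.66 at PD17, 4.65, 6.21, 6.49 and 5.05 at LD1, 5.84, 5.99, 5.26 and 4.89 at LD2, and 4.58, 4.68, 4.86 and 4.82 at LD9, and changed by -2.63 at LD9 relative to PD12 (log2, SE 0.31). Its LD1 arrays spread widely, and the LD9 arrays lay below all pregnancy arrays. Fbln1, an elastic fibre protein, had 6.31, 5.83, 5.96 and 5.89 at PD12, 5.43, 5.58, 5.51 and 5.48 at PD17, 6.06, 6.04, 5.93 and 5.65 at LD1, 6.58, 6.41, 6.16 and 6.14 at LD2, and 6.81, 6.35, 6.91 and 6.97 at LD9 (log2). On this probe set Fbln1 fell by PD17 and then rose through lactation, ending 0.76 above PD12 on the log2 scale (SE 0.14). Its 2 other tested probe sets fell between PD12 and LD9, by 1.36 and 1.67 on the log2 scale, so the direction for Fbln1 depends on the probe set. Over all genes with several probe sets there were 33 pairs of calls over the stage and tissue comparisons, of which 29 had the same direction, and the 4 opposite ones came from 2 genes, Fbln1 and Col1a2. Thbs2, a matricellular inhibitor of vessel growth, had log2 levels of 4.76, 4.68, 4.02 and 4.71 at PD12, 3.32, 3.47, 3.83 and 3.27 at PD17, 3.77, 3.26, 3.53 and 3.41 at LD1, 3.51, 3.46, 3.54 and 3.44 at LD2, and 3.66, 3.48, 3.55 and 3.77 at LD9. Thbs2 fell by PD17 and stayed under the line afterwards, with a log2 change of -0.93 at LD9 relative to PD12. Since only its PD12 mean passed the filter, neither fall is independent of the filter. Without LD9 replicate 1 the changes of Fbln2, Fbln1 and Thbs2 were -2.58, 0.75 and -0.94.

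Collagens that associate with fibrils changed in both directions. Col14a1 and Col9a3 fell between PD12 and LD9, with log2 changes of -1.20 and -0.60, while Col9a2 and Col12a1 rose by 0.87 and 0.75. The other genes that rose were Fbln1, Col11a2, Col13a1 and Col26a1, with log2 changes of 0.76, 0.68, 0.66 and 0.56 (all log2). Of the genes that rose, Col12a1, Col13a1 and Col26a1 had PD12 means of 3.51, 4.06 and 3.72, below the line, while Fbln1, Col11a2 and Col9a2 lay above it at both stages. Col9a1, a chain of type IX collagen, had log2 levels of 7.61, 7.06, 6.89 and 7.21 at PD12, 7.18, 7.03, 7.56 and 7.73 at PD17, 8.38, 8.12, 8.30 and 8.18 at LD1, 8.28, 8.68, 8.32 and 8.55 at LD2, and 6.93, 7.45, 7.39 and 7.81 at LD9. Its LD1 and LD2 arrays all lay above those of PD12 and PD17, and by LD9 the levels overlapped those of pregnancy. The log2 change of Col9a1 was 0.87 at LD1 and 1.08 at LD2 relative to PD17 (adjusted p = 0.00171 and 1.14e-04), and -1.06 at LD9 relative to LD2 (adjusted p = 2.74e-04). Col7a1, of the anchoring fibrils beneath epithelium, had a log2 change of -0.14 at LD9 relative to PD12 and was not called. The 11 genes under the line were Col2a1, Col4a3, Col4a4, Col8a1, Col10a1, Col11a1, Col17a1, Col19a1, Col22a1, Lama3 and Thbs3, with stage means of 1.77 to 3.85, and 8 stood higher and 3 lower at LD9 than at PD12 without a test. Nearest to the line were Col12a1 at 4.26 and Col26a1 at 4.28 inside it, and Lama3 at 3.85 outside.

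Over successive steps, most called falls lay between mid and late pregnancy and between early and established lactation. This timing depends on how the span is cut. Taken as 1 step, LD2 relative to PD17 had 17 falls, as many as the 17 at LD9 relative to LD2. The shares of all tested probe sets that fell were 24.5% and 16.2%. Counts per step also moved without LD9 replicate 1. At PD17 relative to PD12, 24 genes fell and 1 rose of 39 tested, where 26.7% of all tested probe sets fell and 18.4% rose. The falls include Thbs2, which passed the filter only through its PD12 mean. The median log2 change over the 50 genes was -0.50, beside 0.13 over all probe sets. Type VI collagen led this step, with -1.86 for Col6a3 and -1.80 for Col6a2, followed by Lama4 with -1.72 and Col4a2 with -1.41 on the log2 scale. The fall of Col1a1 at this step, -0.97 on the log2 scale, lost its call when any of the 8 compared arrays was left out (adjusted p up to 0.0944). It kept its call without LD9 replicate 1, which is in neither group. Every PD17 array of Col1a1 (at most 11.31) lay below every PD12 array (at least 11.94). Small falls of Col9a3, Col4a5, Lamb2 and Col7a1, of 0.31 to 0.46 on the log2 scale, also lost their calls without 1 of several arrays. Between PD12 and PD17, Dcn, Lamb3 and Col9a1 had log2 changes of 0.38, 0.56 and 0.18, and none of them was called.

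Across parturition fewer genes were called. At LD1 relative to PD17, 8 fell and 2 rose, where 14% of all tested probe sets fell and 9.32% rose. Lamb3 and Fbln2 changed by -1.18 and -1.09 on the log2 scale (adjusted p = 0.00251 and 0.0148), and the genes that rose were Col9a1 and Fbln1. The count depended on single arrays: it was 6 without LD1 replicate 1 or PD17 replicate 2, and 16, with 14 lower, without LD9 replicate 1, which enters this step through the shared variance and the filter (37 genes tested). On the ribosomal protein scale 10 rose and 4 fell, with a shift of 0.29 in the median of all probe sets. At LD2 relative to PD17, 17 genes fell and 6 rose, where 24.5% of all tested probe sets fell and 25.5% rose. Lama4, Col1a2 and Col6a3 changed by -1.86, -1.67 and -1.62 on the log2 scale, and Dcn by -1.16. On the ribosomal protein scale the split at LD2 was 9 lower and 13 higher, with a shift of 0.45. The median log2 change over the 50 genes was -0.12 at LD1 and -0.10 at LD2 relative to PD17, beside 0.07 and 0.16 over all probe sets, and on the ribosomal scale it was 0.17 and 0.36.

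Between LD1 and LD2 only Lama4 and Dcn fell and none rose of 39 tested, where 8.18% of all tested probe sets fell and 6.11% rose. Their log2 changes were -1.30 and -0.85 (adjusted p = 2.87e-04 and 0.0112). Without LD9 replicate 1 the count was 5, all lower, in a fit of only these stages it was 7, with 6 lower, and on the ribosomal protein scale it was 9, with 2 lower. At LD9 relative to LD2, 17 genes fell and 2 rose, where 16.2% of all tested probe sets fell and 8.82% rose. All 5 called fibrillar collagens, both type IV chains, Sparc, Postn, Lum and Dcn were among those that fell. Lamb3, Lum and Col15a1 had the largest log2 changes, of -3.00, -1.91 and -1.51, and -2.95, -1.38 and -1.14 without LD9 replicate 1. For Lamb3 this holds on its brightest probe set: the mean of its probe sets changed by -1.63. In a fit of these stages alone 12 fell and 1 rose, the calls for Col1a1, Col1a2, Col3a1, Col6a2, Postn and Fbln1 being lost (adjusted p of 0.0578 to 0.101). Without LD9 replicate 1, 15 fell and 1 rose, the calls for Lama4, Postn and Fbln1 being lost, and the log2 change of Col1a1 was -0.70 rather than -1.32. The steps share arrays, so a fall in 1 step and the next are not independent.

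**Figure D3:**
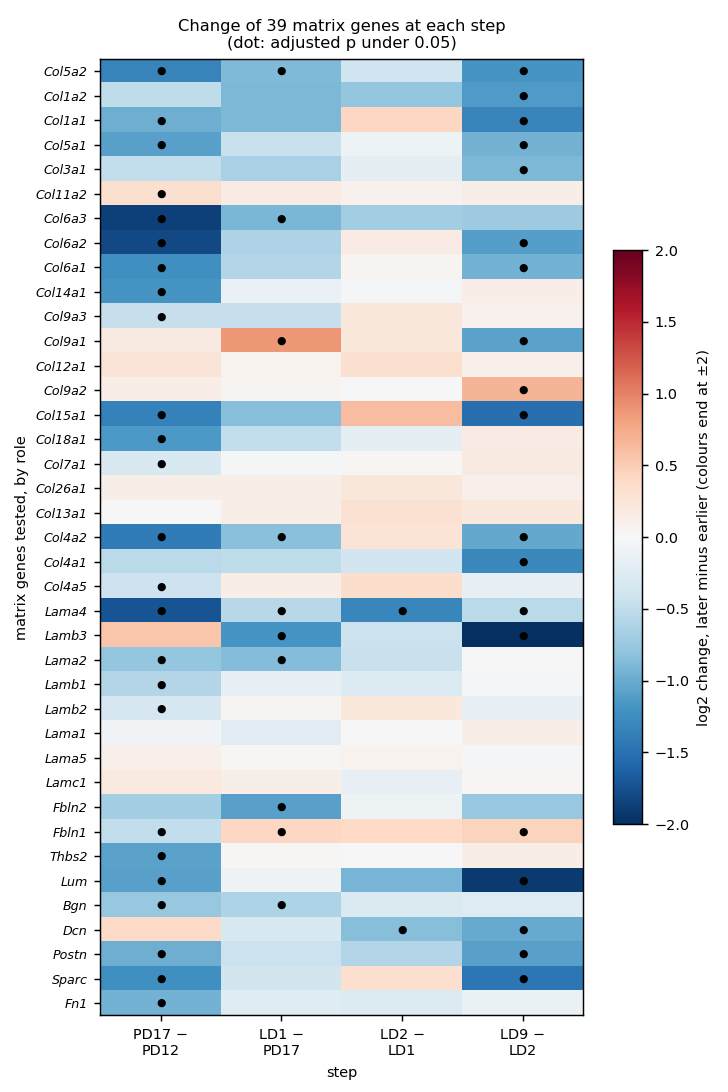
Log2 change (colour, later minus earlier stage) of the 39 tested matrix genes (vertical axis, by role) at 4 successive steps (horizontal axis), with a dot where the adjusted p was under 0.05. Dots on blue cells gather in the PD17 minus PD12 and LD9 minus LD2 columns. The span from PD17 to LD2, which had 17 falls when taken as 1 step, is split over the columns between them. Lamb3 at LD9 minus LD2 is the deepest at -3.00.

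Markers of other cells moved over the same span, and their part in the matrix changes was not tested. The fibroblast list shares Loxl1 with the collagen processing list, and Fbn1 and Dpt with the list of other matrix proteins. Counts of these lists are therefore not independent. For the counts at LD9 relative to PD12, the shares over all tested probe sets were 42.4% lower and 35.2% higher. Of the fibroblast markers, 8 fell and 1 rose of 10 tested at LD9 relative to PD12. Their summed intensity was 299 to 360 over LD9 arrays, against 848 to 1267 over PD12 arrays. All 10 adipocyte markers fell (summed intensity 1734 to 3202 at LD9, against 11033 to 19245 at PD12), as did all 7 tested macrophage markers (451 to 869 at LD9, against 2223 to 3290 at PD12). Endothelial markers were divided, with 5 lower and 3 higher of 9, at 691 to 751 in LD9 arrays and 920 to 1012 in PD12 arrays. Myoepithelial markers fell in 5 of 6 and rose in 1 (887 to 1421 at LD9, against 2674 to 3456 at PD12). Pericyte and smooth muscle markers fell in 3 of 5 and rose in 1. Secretory luminal markers rose in 4 of 7 and fell in 2, with 94944 to 104857 at LD9 and 29675 to 48505 at PD12. By step, 8 of 10 fibroblast, 8 of 10 adipocyte and 6 of 7 macrophage markers fell at PD17 relative to PD12, where 26.7% of all tested probe sets did. At LD9 relative to LD2 1, 2 and 2 of them fell, where 16.2% of all tested probe sets did. Without LD9 replicate 1, fibroblast markers at LD9 relative to PD12 were 8 lower and 0 higher. Endothelial markers were then 4 lower and 3 higher, and pericyte markers 2 lower and 1 higher. The adipocyte, macrophage, myoepithelial and secretory counts did not change. At LD9 relative to LD2 without that array, 1 fibroblast, 1 adipocyte and 1 macrophage marker fell, and 1 other macrophage marker rose.

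Genes that process collagen moved with it only in part. Of 13 on the array, 12 were tested, and at LD9 relative to PD12 8 fell and 3 rose (7 and 3 without LD9 replicate 1), where 42.4% of all tested probe sets fell and 35.2% rose. The collagen chaperone Serpinh1 changed by -3.23, the procollagen peptidase enhancer Pcolce by -3.01, the prolyl hydroxylation cofactor Crtap by -2.67 and the collagen galactosyltransferase Colgalt1 by -2.18 on the log2 scale. Mia3, which loads procollagen into transport carriers, rose by 1.18. The median log2 change of the 13 was -0.53, beside 0.35 over all probe sets. Of 35 other matrix proteins on the array, 24 were tested, of which 16 fell and 5 rose over the same span, with or without that array. The microfibril proteins Mfap5 and Mfap2 changed by -2.98 and -2.87, dermatopontin (Dpt) by -2.95, and the basement membrane protein Smoc1 by -2.27 on the log2 scale. At PD17 relative to PD12, 7 of 12 processing genes fell and 1 rose, where 26.7% of all tested probe sets fell and 18.4% rose. At the same step 11 of 24 other matrix proteins fell while tenascin C (Tnc) rose by 0.91 on the log2 scale. At LD9 relative to LD2, 3 of 12 processing genes fell and 1 rose (2 and 0 without LD9 replicate 1), and 4 of 24 other matrix proteins fell and 2 rose, where 16.2% of all tested probe sets fell and 8.82% rose. The shares of other matrix proteins lie near that background.

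The diet comparison asked whether matrix transcripts of the lactating gland differ between low and high fat. Only Col9a1 was called among 34 tested genes at 40% relative to 8% fat, and it was higher. Of all tested probe sets 0.0463% rose and 0.0463% fell. Col9a1 had log2 levels of 5.75, 5.89 and 5.80 on 8% fat, 6.12, 6.15 and 6.01 on 16% fat, and 6.46, 6.74 and 6.90 on 40% fat. Every 40% array lay above every 16% array, and every 16% array above every 8% array. The log2 change at 40% relative to 8% was 0.89 (SE 0.12, adjusted p = 0.0337), but the call was lost under quantile normalization (adjusted p = 0.0741), on the ribosomal protein scale (0.0715), in a fit of these 2 diets alone (0.141), and without 5 of the 6 arrays taken singly (up to 0.14).

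Some stromal collagens stood higher on 40% fat without passing the test, and others overlapped between 40% and 8% fat. In the 40% arrays 8 genes lay above every 8% array and 1 below, where the shares over all tested probe sets were 7.14% and 5.98%. Col6a3 had log2 levels of 5.72, 4.92 and 5.40 on 8% fat, 5.34, 4.14 and 4.34 on 16% fat, and 6.34, 6.83 and 6.35 on 40% fat, with a log2 difference of 1.16 between 40% and 8% fat (adjusted p = 0.27). Col1a2 had 6.87, 6.07 and 6.26 on 8% fat, 6.88, 7.01 and 6.46 on 16% fat, and 7.31, 7.02 and 7.36 on 40% fat (log2), and differed by 0.83 (adjusted p = 0.261). Sparc had 9.06, 8.86 and 8.73 on 8% fat, 9.63, 9.40 and 9.22 on 16% fat, and 9.55, 9.60 and 10.13 on 40% fat (log2), and differed by 0.88 (adjusted p = 0.169). For these 3 genes the 40% arrays did not overlap the 8% arrays, and the differences exceeded the spread within groups while missing the threshold over all probe sets. Col1a1 and Col3a1 also stood higher in every 40% array, by 0.96 and 0.69 on the log2 scale (adjusted p = 0.229 and 0.134). Dcn, in contrast, had log2 levels of 9.77, 9.79 and 9.77 on 8% fat, 9.74, 9.84 and 9.29 on 16% fat, and 9.64, 9.85 and 9.57 on 40% fat, and Fn1 of 7.27, 6.63 and 7.17 on 8% fat, 6.88, 7.26 and 6.80 on 16% fat, and 7.42, 6.99 and 6.62 on 40% fat. For Dcn and Fn1 the 3 diets overlapped. The 40% arrays also overlapped the 8% arrays for the collagens Col5a1, Col5a2, Col6a1 and Col6a2, and for Postn and Lum. No list of matrix processing genes or other matrix proteins had a called member between any diets, and none of the marker lists did between 40% and 8% fat.

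The 16% diet gave no called gene. At 16% relative to 8% fat, 0 of 34 genes were called by limma, with 0% of all tested probe sets higher and 0% lower, and at an unadjusted p under 0.05 there were 6 genes and 12.3% of probe sets. In the 16% arrays 3 genes lay above and 2 below every 8% array, beside 14.1% and 7.3% of probe sets. At 40% relative to 16% fat, 0 of 34 genes were called, where 0.0771% of probe sets rose and 0.0463% fell, and 7 genes and 13.7% of probe sets had an unadjusted p under 0.05. In the 40% arrays 7 genes lay above and 3 below every 16% array, beside 6.08% and 11% of probe sets. Col6a3 came nearest, with a log2 difference of 1.90 (adjusted p = 0.0577), and passed with the filter at the 75th percentile, after 16 was added to each intensity, or on the ribosomal protein scale. The median log2 change of the 50 genes was 0.04 at 40% and 0.07 at 16% relative to 8%, beside 0.03 and 0.08 over all probe sets, and 0.02 at 40% relative to 16%, beside -0.06.

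**Figure D4:**
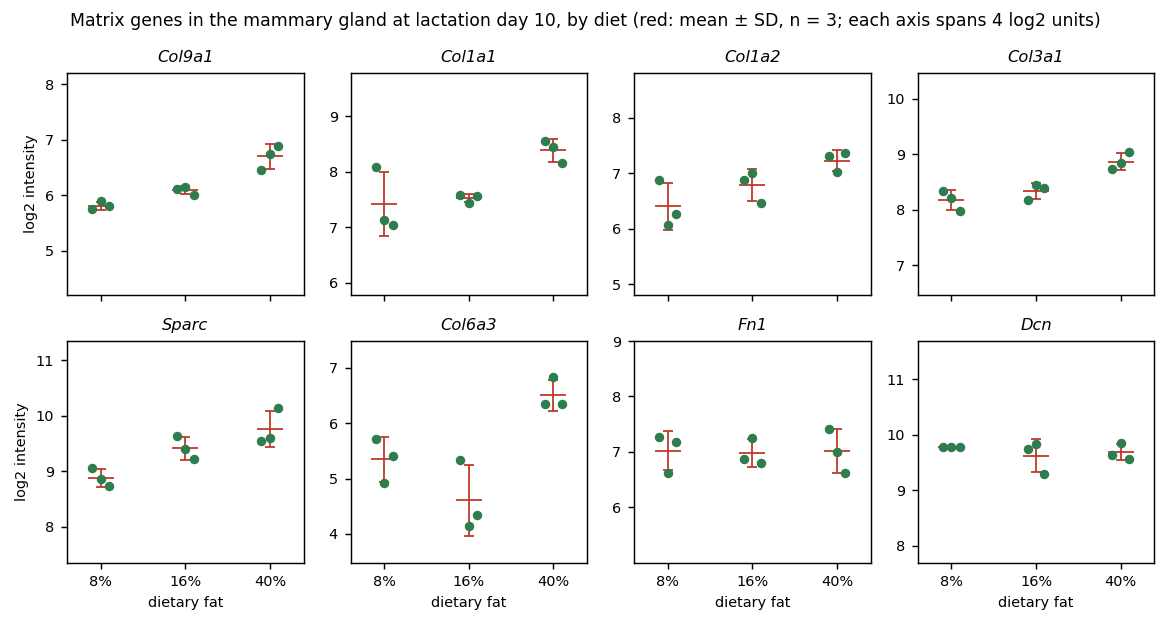
Log2 intensity (vertical axis) of 8 matrix genes in the mammary gland at lactation day 10 by dietary fat (horizontal axis), with a point per array and red bars for the mean and SD of 3 arrays. Col9a1 climbs with fat, Col1a1, Col1a2, Col3a1, Sparc and Col6a3 have their highest mean at 40%, and Fn1 and Dcn overlap between diets.

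The tissue comparison set liver against mammary gland, both on 8% fat at lactation day 10. Of 33 genes tested, 4 were higher and 25 lower in liver, where 39.7% of all tested probe sets were higher and 40.3% lower. Postn, Lamb2, Lamb3, Col6a2, Col6a3, Col9a3 and Col13a1 passed the filter only through their mammary means, and Col14a1 only through its liver mean. For these genes the filter and the comparison of tissues are not independent. The median log2 difference over the 50 genes was -0.65, beside -0.25 over all probe sets. All 9 hepatocyte markers were higher in the liver arrays, whose label they fit, and secretory luminal markers were 1169 to 1342 in summed intensity in liver, against 95313 to 99484 in mammary gland. Fibroblast markers were lower in liver in 7 of 8 tested and macrophage markers higher in 6 of 7; their part in the differences was not tested. On the ribosomal protein scale the split was 10 higher and 10 lower, with a shift of 0.98 in the median of all probe sets.

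The genes higher in liver were Col18a1, Fn1, Col14a1 and Bgn. Col18a1, which hepatocytes are known to express, had log2 levels of 11.83, 11.97 and 11.88 in liver, against 6.13, 5.95 and 6.11 in the mammary gland. The difference was 5.83 on the log2 scale (56.8-fold, SE 0.10, adjusted p = 9.43e-10). Fn1, secreted by hepatocytes into plasma, had 9.53, 9.61 and 9.44 in liver, against 7.27, 6.63 and 7.17 in the mammary gland (log2), a difference of 2.50 (SE 0.17). Bgn had 7.97, 7.73 and 7.62 in liver, against 6.90, 6.48 and 6.11 in the mammary gland (log2), a difference of 1.28 (SE 0.20). In each of these the 2 tissues did not overlap. Col14a1 differed by 1.64 on the log2 scale and lay just under the filter line in the mammary gland.

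Periostin and a laminin chain were the furthest below in liver. Postn had log2 levels of 4.43, 3.62 and 3.73 in liver, against 7.78, 7.81 and 7.25 in the mammary gland, a difference of -3.69 (SE 0.24, adjusted p = 3.65e-06). Lamb1 had 4.58, 4.85 and 4.14 in liver, against 7.22, 7.20 and 7.46 in the mammary gland (log2), a difference of -2.77 (SE 0.18). Col1a2 had 5.11, 3.94 and 3.86 in liver, against 6.87, 6.07 and 6.26 in the mammary gland (log2), a difference of -2.10 (SE 0.35). On the deposited scale all 6 tested fibrillar collagens, all 3 type VI chains and all 6 tested laminins were lower in liver, from -0.28 for Lamc1 to -2.77 for Lamb1 (log2). With the ribosomal protein scale the sign turned for Lamc1, Fbln2, Col4a2, Col5a1, Col9a3, Col13a1 and Col11a2, which had log2 differences of -0.28 to -0.95 on the deposited scale. Of these, Lamc1 and Col13a1 were then called higher in liver, by 0.697 and 0.485 (log2, limma, adjusted p = 0.000194 and 0.00337). Lama1, Lama5, Col5a2, Col6a1, Col6a2, Col7a1 and Fbln1 kept their sign on that scale but lost their calls. Not called were Sparc, with 8.72, 8.50 and 8.57 in liver, against 9.06, 8.86 and 8.73 in the mammary gland (log2, adjusted p = 0.0529), Dcn, with 9.80, 9.47 and 9.58 in liver, against 9.77, 9.79 and 9.77 in the mammary gland (log2, adjusted p = 0.189), Lum, with 5.50, 5.13 and 5.21 in liver, against 5.23, 5.78 and 5.19 in the mammary gland (log2, adjusted p = 0.561), and Col15a1 (difference 0.06, adjusted p = 0.805).

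**Figure D5:**
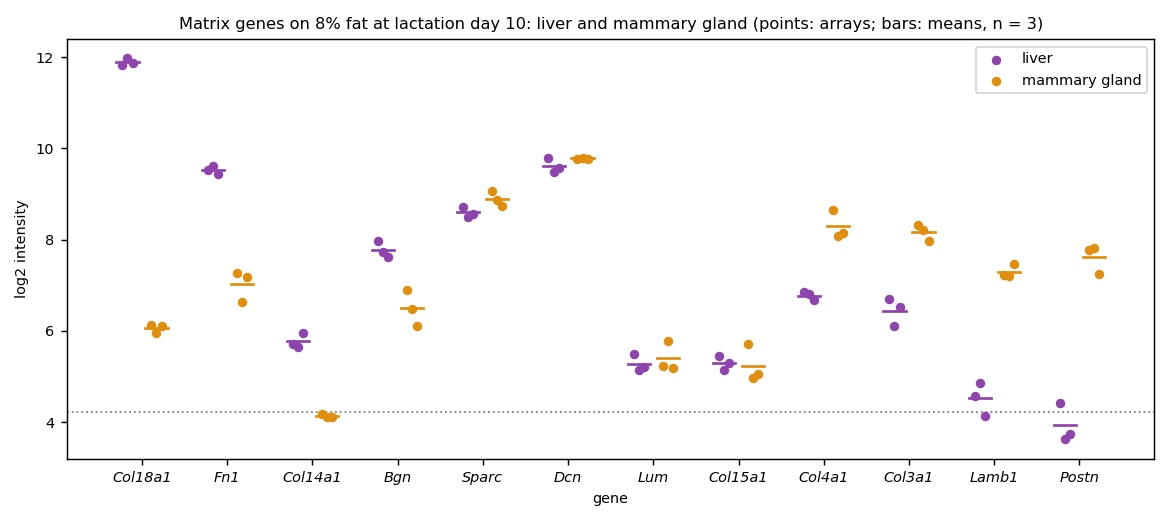
Log2 intensity (vertical axis) of 12 matrix genes on 8% fat at lactation day 10 (horizontal axis), with purple points for liver to the left of orange points for mammary gland, bars for means of 3 arrays and a dotted line at the filter of 4.22. Col18a1, Fn1, Col14a1 and Bgn stand higher in liver, and Col4a1, Col3a1, Lamb1 and Postn lower.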

How the data were processed

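The deposited table gave 1 intensity per probe set and array on a linear scale, which the authors made with GCRMA per the submitters' processing notes. GCRMA combines a background correction based on probe sequence with normalization across arrays and a summary over probes. No source used here gives its settings or says whether all 32 arrays were processed together. It shrinks dim probe sets towards background, which understates changes of low genes. The labels' protocols state that tissue samples were lysed individually and that roughly 5 µg of RNA was converted to biotin-labelled cRNA.

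The deposited intensities were taken to log2 after a floor of 1, which 208 values lay below, with no further normalization. Probe sets were named from the platform annotation: 10833 named 1 gene, 396 several and 1193 none, and 66 control probe sets were left out. Linear models with moderated variances (limma 3.58.1, R 4.3.3) were fitted on all probe sets past the filter, 7189 in the 20 stage arrays, 6483 in the 9 diet arrays and 6897 in the 6 tissue arrays, with Benjamini-Hochberg adjustment over all of them and calls at 0.05. The liver and mammary arrays entered as independent.

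The genes and lists were chosen with earlier results of these data known. Per-array values are given for the gene with the highest mean intensity in each role, which decided only what is shown, the 6 glycoproteins and proteoglycans, and the 3 genes with the largest called change in each comparison. Of the lists of processing genes and other matrix proteins, up to 4 called genes per comparison with large changes are named. Alternatives were quantile normalization, arrays set equal on 25 ribosomal protein probe sets, no filter, a filter at the 75th percentile (69.5), log2 after adding 16, the mean of a gene's probe sets, only the compared groups, a replicate block, a variance trend and leaving out each array; omitting LD9 replicate 1 from comparisons of other stages was chosen after seeing the data. The fits were tested on simulated data with known changes. They recovered 85.7% of 2-fold changes in the stages, 89.0% in the diets and 84.0% in the tissues. For 1.5-fold changes the shares were 51.7%, 54.0% and 42.7%, so a gene that was not called may still have changed by that much. The number of arrays limits the precision.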

Additional observations from a re-analysis of the deposited data

Results flagged for a closer look

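In 5 of 105 groups of 4 arrays, over the 21 genes given by array, 1 array lay so far from the other 3 that the gap to the nearest took 0.84 to 0.951 of the group's whole range, past Dixon's limit for 4 samples. Chance gives such a gap in about 1 of 20 groups. Col6a1 was high in LD1 replicate 3, at 7.859 against 7.263 to 7.358 in the other LD1 arrays (log2). Dcn was low in LD1 replicate 1, at 10.737 against 11.59 to 11.725. Fn1 was high in LD9 replicate 3, at 8.669 against 7.591 to 7.644. Sparc was high in PD17 replicate 3, at 11.1 against 10.855 to 10.88. Thbs2 was low in PD12 replicate 3, at 4.018 against 4.68 to 4.764.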

How the results depend on the processing

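Leaving out single arrays gave 6 to 16 called genes at LD1 relative to PD17 (10 with all arrays), 2 to 5 at LD2 relative to LD1 (2), 0 to 1 at 40% relative to 8% fat (1) and 0 to 1 at 40% relative to 16% fat (0). In the other comparisons the range was 20 to 28 at PD17 relative to PD12, 20 to 24 at LD2 relative to PD17, 16 to 20 at LD9 relative to LD2, 30 to 32 at LD9 relative to PD12 and 28 to 31 for liver relative to mammary gland. At LD2 relative to LD1 the ribosomal protein scale gave 9 and a fit of the compared stages alone 7. At 40% relative to 8% fat, quantile normalization, the ribosomal protein scale, a fit of the compared diets alone and the replicate block each gave 0. At 40% relative to 16% fat the ribosomal protein scale, the 75th percentile filter and the added 16 each gave 1, Col6a3. For liver relative to mammary gland no filter gave 47, because more genes were tested, and the 75th percentile filter 15, because fewer were. On the ribosomal protein scale 8 called log2 changes turned sign: Lamb1 at LD2 relative to PD17 became 0.01, and between liver and mammary gland Fbln2 became 0.211, Col4a2 0.031, Col5a1 0.289, Col9a3 0.175, Col13a1 0.485, Col11a2 0.035 and Lamc1 0.697. The cause was not tested. The labels do not say that replicate numbers pair the arrays. Deviations of same-numbered stage arrays correlated at -0.23 to 0.268 (median 0.005), and those of diet arrays at -0.180 to 0.142. In the 3 same-numbered pairs of liver and mammary arrays the correlations were -0.0077 to 0.0216. Weak correlations over the tested probe sets cannot exclude shared animals. With the replicate block the counts were 23 at PD17 relative to PD12, 12 at LD1 relative to PD17, 32 at LD9 relative to PD12 and 30 for liver. GCRMA keeps no detection call, so values of the dim genes have no stated bound.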

Other observations

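The glands on 8% fat at lactation day 10 differ from the chow glands at LD9 in diet, day and feeding series, so their levels are set side by side without a test. Col1a1 averaged 7.42 on 8% fat and 9.38 at LD9, Col1a2 6.40 and 8.14, Col9a1 5.81 and 7.40, and Col3a1 8.17 and 9.47 (log2). These were named because their differences were the largest among the matrix genes. The others differed less, and Bgn, Dcn, Fbln2 and Lamb3 were among those that stood higher on 8% fat.

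Pairs of these genes lie next to each other in the RefSeq annotation GRCm38.p6: Col9a1 and Col19a1, Col3a1 and Col5a2, and Col4a4 and Col4a3 on chromosome 1, Col6a2 and Col6a1, and Dcn and Lum on chromosome 10, and Col4a1 and Col4a2 on chromosome 8. In 4 of these pairs both genes fell at LD9 relative to PD12, and the other pairs hold a gene that was not tested. The pairs were noticed after the changes were seen.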
